A study of Mus musculus with 32 samples.

Results

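Multipotent progenitor 1 (MPP1) and MPP2 were compared in young mice by RNA sequencing, with 2 libraries of each, 4 of the 32 libraries of the series. The libraries were chosen by their labels alone: sorted MPP1 and MPP2 from the bone marrow of female C57BL/6 mice at 10 weeks. Both fractions were sorted as live IL-7R- cells without mature lineage markers that were Sca-1+, c-Kit+, CD34+, CD150+ and Flt3-, and they were separated by CD48, which MPP1 lacked and MPP2 carried. The series holds 8 sorted fractions (stem cells, MPP1 to MPP4 and the granulocyte-macrophage, megakaryocyte-erythrocyte and common lymphoid progenitors) at 10 weeks (young) and 20 months (aged), with 2 libraries in each group, and the groups used beside these 4 libraries are MPP1 and MPP2 of aged mice and the young hematopoietic stem cells (HSCs), MPP3 (CD150-, CD48+), granulocyte-macrophage progenitors (GMPs) and megakaryocyte-erythrocyte progenitors (MEPs). All mice were of one sex and strain and carried no engineered allele. One passage of the study has marrow of each age pooled before duplicate sorts, while others call the duplicates independent or biological. If a pool was shared, p-values cover sorting, amplification and counting but not the spread between mice.

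MPP1 stands directly below the HSC in the hierarchy of blood formation and keeps much of its expression program. MPP2 is the progenitor described as biased toward megakaryocytes, the source of platelets, and toward erythrocytes. The transcription factors Gata1 and Klf1 drive the erythroid program, and Gata1 with Fli1 and Nfe2 that of megakaryocytes. CD48 and CD150 are receptors of the SLAM family whose presence divides these progenitors, so the mRNA of Cd48 is a check of the sort and not a result.

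The antigens of the sort followed the labels. Cd48 (chr1:171682009-171705258 in GRCm38) had 8.73 and 6.58 CPM (counts scaled to a library total of 1000000) in MPP1 and 106 and 98.2 CPM in MPP2, 13.7-fold higher (log2 fold change 3.78, standard error 0.13, adjusted p = 2.9e-14). Slamf1, which encodes CD150, had 20.6 and 23.7 CPM in MPP1 and 18.5 and 19.0 CPM in MPP2 and did not pass the test (adjusted p = 0.723). Kit, Ly6a, Flt3 and Ptprc also did not pass. Cd34 had 725 CPM in both MPP1 libraries and 950 and 938 CPM in MPP2, with an adjusted p of 0.0123 that misses the level of 0.01 used here. Il7r had no count in MPP1 and 5 and 7 counts in MPP2. The Fc gamma receptors Fcgr3 and Fcgr2b, which divide myeloid progenitors but not these fractions, were higher in MPP2, Fcgr3 at 1.73 and 1.85 CPM against 14.3 and 15.1 CPM and Fcgr2b at 4.74 and 3.40 CPM against 10.7 and 9.83 CPM.

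Of 14154 genes tested, 680 were higher in young MPP2 (4.80%) and 286 lower (2.02%), 966 in all (6.82%), at an adjusted p under 0.01. The median change was 1.7-fold among the higher and 1.67-fold among the lower genes. It reached 2-fold in 229 of the higher genes (33.7%) and 94 of the lower genes (32.9%). Over all tested genes the median log2 fold change was -0.02. The root mean square log2 difference was 0.461 between the MPP1 duplicates and 0.459 between the MPP2 duplicates, against a mean of 0.731 between libraries of the 2 fractions. The same measure was 0.597 for MPP2 and MPP3 and 0.77 for HSCs and MPP1. With a prior count of 0.5 in place of 2 it was 0.986 both for MPP1 and MPP2 and for HSCs and MPP1, so those 2 steps have no order. DESeq2 called 953 genes higher and 729 lower, so the share of higher genes was 56.7% with it and 70.4% here. Leaving out 1 library gave 494 (MPP2 replicate 1), 477 (MPP2 replicate 2), 473 (MPP1 replicate 1) and 476 (MPP1 replicate 2) called genes, with shares of higher genes of 74.2 to 81.8%.

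**Figure D1:**
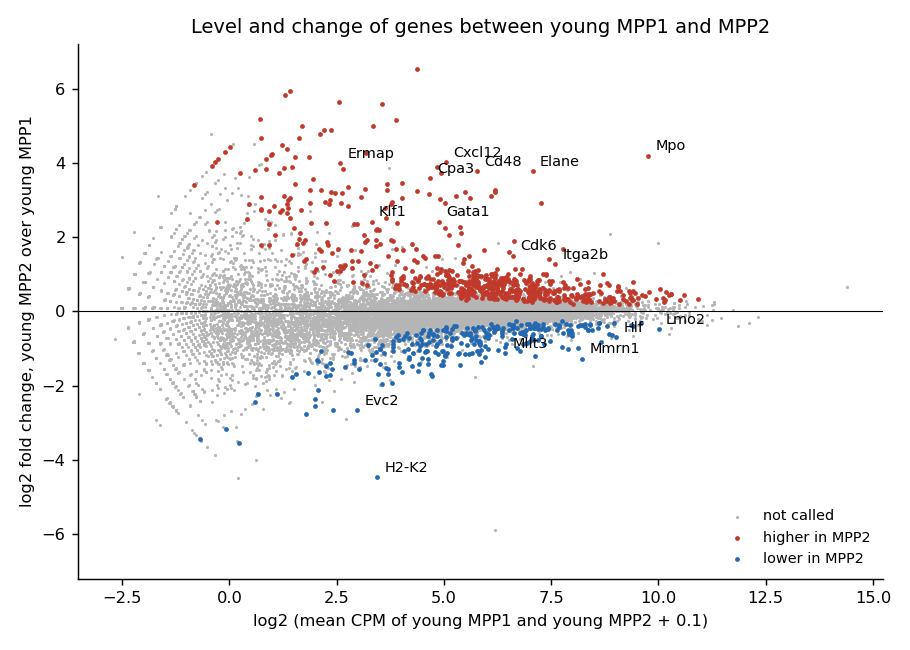
Each point is a tested gene, with the log2 of its mean CPM in young MPP1 and MPP2 (plus 0.1) on the horizontal axis and its log2 fold change on the vertical axis, red where called higher in MPP2 and blue where called lower. Genes without a count in both libraries of a fraction are not drawn, and large changes on the MPP2 side, such as Mpo, Elane, Cd48 and Cxcl12, go further from zero than most on the MPP1 side.

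Markers of mature blood and stromal cells are given first, since some of them were higher in MPP2. Of 14 tested macrophage markers 9 were higher in MPP2 (64.3%, beside 4.80% of all genes), and their summed level was 139 to 148 CPM in MPP1 and 351 to 353 CPM in MPP2. C1qb, a chain of complement C1q made by tissue macrophages, had 5.27 and 6.73 CPM in MPP1 and 22.6 and 21.0 CPM in MPP2. Without MPP1 replicate 1 its adjusted p was 0.0175, and the count of macrophage markers called was 3 to 5 over the libraries left out in turn. Marco was the listed macrophage marker without a count in MPP1. Of 13 stromal and endothelial markers 5 were higher (38.5%), or 3 to 4 when 1 library was left out, with sums of 158 to 161 CPM and 266 to 273 CPM. Cxcl12, the niche chemokine of stromal cells, had 3.69 and 4.29 CPM in MPP1 and 62.4 CPM in both MPP2 libraries. Pdgfrb had 24.5 and 26.6 CPM in MPP1 and 72.8 and 67.2 CPM in MPP2. Most of the rise in the sum lay in these 2 genes, whose means in young MPP3 were 75.3 CPM for Cxcl12 and 85.8 CPM for Pdgfrb. Sparc, a matrix protein, had 0.828 and 1.18 CPM against 9.47 and 8.77 CPM, with an adjusted p of 0.0134 without MPP1 replicate 1, while the defining genes Col1a1 and Cdh5 were without a count in MPP1 and under 1 CPM in MPP2. Of 15 markers of B, T and NK cells 2 were higher (13.3%), Nkg7 and Cd79a (adjusted p = 0.0137 without MPP1 replicate 2 for Cd79a). Nkg7, also in the granulocyte and monocyte list, had 41.4 and 44.4 CPM in MPP1 and 148 and 163 CPM in MPP2. Its mean in young GMPs was 577 CPM, and it made up most of the rise in the summed level of the 15 markers. The sums were 92.0 to 98.6 CPM and 201 to 219 CPM. Of the 15 markers 7 had no count in MPP1, among them Cd3e, Ms4a1 and Ncr1. In bulk samples a larger share of such cells or their RNA and a higher level in every progenitor cannot be told apart, and the part of these cells in the results was not tested.

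Stem cell genes were lower in MPP2 where they changed. Of 36 stem cell regulators and markers, 17 were lower in MPP2 (47.2%, beside 2.02% of all genes) and 0 higher, and the median log2 fold change was -0.77 with all 36 values below zero. Mllt3, a regulator of HSC maintenance, had 121 and 117 CPM in MPP1 and 55.4 and 50.6 CPM in MPP2, 2.18-fold lower (log2 fold change -1.13, SE 0.10, adjusted p = 1.49e-07). Socs2, an inhibitor of cytokine signalling, had 42.6 and 48.3 CPM against 17.8 and 17.1 CPM. Ndn, which restrains HSC division, had 62.3 and 60.7 CPM against 20.9 and 22.8 CPM, and the sulfotransferase Sult1a1 had 21.2 and 22.4 CPM against 6.26 and 4.76 CPM. In none of these 4 genes did the libraries of the fractions overlap. The transcription factor genes Hlf (664 and 635 CPM against 398 and 381) and Mecom (158 and 142 CPM against 81.4 and 78.7) and the surface receptor gene Procr (88.9 and 86.0 CPM against 35.8 and 37.4) were lower as well. Meis1, at 541 and 505 CPM in MPP1 and 417 and 399 CPM in MPP2, did not pass (adjusted p = 0.0773), nor did Erg. The summed level of the list was 11200 to 11600 CPM in young HSCs, 6880 to 6910 in MPP1, 4650 to 4670 in MPP2 and 4670 to 4830 in MPP3. When 1 of the 4 libraries was left out, 10 genes of the list were called each time.

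Of 24 megakaryocyte and erythroid transcription regulators 2 rose (8.33%, beside 4.80% of all genes) and 1 fell (4.17%), with a median log2 fold change of -0.09. The summed level of the list was 8170 to 8520 CPM in MPP1 and 7150 to 7220 CPM in MPP2. Gata1 (chrX:7959260-7978071) had 9.18 and 9.77 CPM in MPP1 and 48.9 and 49.7 CPM in MPP2, 5.35-fold higher (log2 fold change 2.42, SE 0.18, adjusted p = 6.51e-09). Klf1 (chr8:84901928-84905291) had 2.93 and 3.48 CPM against 16.5 and 16.6 CPM, 5.3-fold higher (2.41, SE 0.26, adjusted p = 1.49e-06). Both genes were higher in each MPP2 library than in each MPP1 library, and both had far higher levels in young MEPs, with means of 412 CPM for Gata1 and 958 CPM for Klf1. Lmo2, the bridge protein of the Scl and GATA complex, was the one regulator that fell, from 1210 and 1220 CPM to 836 and 849 CPM (1.4-fold, adjusted p = 4.65e-06). Tal1 and Ldb1, its partners, had 47.8 and 53.9 against 40.5 and 46.0 CPM and 156 in both against 125 and 122 CPM, with adjusted p of 0.494 and 0.0447. Gata2 stood at 452 and 437 CPM against 432 and 420 CPM (log2 fold change -0.02, SE 0.20). Gfi1b, a repressor needed for both lineages, stood at 107 and 108 CPM against 107 and 110 CPM (0.05, SE 0.14). The megakaryocyte factors Fli1 (226 and 237 against 196 and 203 CPM), Nfe2 (543 and 572 against 429 and 434 CPM) and Zfpm1, the cofactor of Gata1 (344 and 327 against 319 and 311 CPM), did not pass either, with adjusted p of 0.464, 0.0865 and 0.974. The other 14 regulators that were not called had log2 fold changes between -0.32 and 0.16.

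The stretches ahead of the start of 3 genes that rose are shown, those with the smallest p among the regulators and the megakaryocyte and red cell genes that have an entry in the RefSeq promoter table. Each is 250 bases on the minus strand of GRCm38.p6, written 5′ to 3′ and ending at the base before the RefSeq start: chrX:7967911-7968160 for Gata1, chr4:119189996-119190245 for Ermap and chr12:4874360-4874609 for Mfsd2b. The Gata1 stretch lies inside the annotated span of the gene, since another start is annotated further upstream. Capitals mark the letters of 2 kinds of motif on either strand. One is GATA with A or T before it and A or G behind it. The other is the word CCNCNCCC, a loose form of the CACCC boxes that Klf1 can bind.
Gata1: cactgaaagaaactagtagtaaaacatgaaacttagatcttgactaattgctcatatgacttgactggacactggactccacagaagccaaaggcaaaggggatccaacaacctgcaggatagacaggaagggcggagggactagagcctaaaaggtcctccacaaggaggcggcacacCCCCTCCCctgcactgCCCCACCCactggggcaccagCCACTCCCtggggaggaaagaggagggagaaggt
Ermap: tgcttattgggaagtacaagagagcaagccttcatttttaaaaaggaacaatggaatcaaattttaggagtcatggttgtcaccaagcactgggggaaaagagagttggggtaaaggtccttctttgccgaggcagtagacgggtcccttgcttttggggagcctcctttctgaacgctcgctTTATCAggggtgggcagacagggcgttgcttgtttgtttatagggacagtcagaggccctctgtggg
Mfsd2b: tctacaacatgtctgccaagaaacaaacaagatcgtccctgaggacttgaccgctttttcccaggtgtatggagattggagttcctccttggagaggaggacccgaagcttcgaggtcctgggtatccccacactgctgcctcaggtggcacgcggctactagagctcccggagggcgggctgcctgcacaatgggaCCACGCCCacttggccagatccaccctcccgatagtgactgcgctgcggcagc
The Gata1 stretch held 3 CCNCNCCC words (CCCCTCCC, CCCCACCC and CCACTCCC) and 0 GATA words, Ermap 1 GATA word and Mfsd2b 1 CCNCNCCC word (CCACGCCC). Of these CCNCNCCC words only CCCCACCC contains the letters CACCC. Among 27025 promoter stretches of the same length in the table, 27.1% held a GATA word and 45.6% the CCNCNCCC word. Such matches are therefore common and describe the letters only. The share over the 15 red cell genes called is void, because 10 of them (66.7%) had an entry.

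Genes of megakaryocytes and platelets were divided. Of 45 tested, 7 were higher in MPP2 (15.6%, beside 4.80% of all genes) and 4 lower (8.89%, beside 2.02%), and the median was 0.11. The summed level of the list was 4110 to 4190 CPM in MPP1 and 3510 to 3520 CPM in MPP2. Itga2b, the integrin subunit CD41, had 118 and 114 CPM in MPP1 and 269 and 274 CPM in MPP2 (2.41-fold, log2 fold change 1.27, SE 0.15, adjusted p = 3e-06). Plek, a substrate of protein kinase C in platelets, had 45.6 and 48.2 CPM against 141 and 133 CPM. Its means were 149 CPM in young MPP3 and 33.6 CPM in young MEPs. Serpine2, a protease inhibitor, had 3.54 and 4.22 CPM against 13.2 and 14.2 CPM, with a mean of 90.3 CPM in young GMPs. Gp5, a subunit of the von Willebrand factor receptor, had 37.7 and 34.7 CPM against 63.8 and 70.7 CPM. Gp1bb, another subunit of that receptor, F10 and F2rl2 were also called higher. Mmrn1, a storage protein of platelet granules, fell from 432 and 415 CPM to 182 and 160 CPM (2.41-fold), with an adjusted p of 0.000842 and of 0.0247 without MPP2 replicate 2. Tbxas1, which makes thromboxane, fell from 220 and 236 CPM to 126 CPM in both libraries, and Gng11 from 62.7 and 73.5 CPM to 38.6 CPM in both. Thbs1 had 43.9 and 46.4 CPM against 19.7 and 19.1 CPM, with an adjusted p of 0.0078 that rose to between 0.0367 and 0.0764 when any 1 of the 4 libraries was left out. In young HSCs the 4 genes that fell had means of 546 CPM for Mmrn1, 487 CPM for Tbxas1, 129 CPM for Gng11 and 46.7 CPM for Thbs1. The defining platelet genes Pf4 (15.1 and 19.1 against 34.5 and 36.4 CPM, adjusted p = 0.0414), Ppbp (4.74 and 6.07 against 11.5 and 11 CPM, adjusted p = 0.132) and Gp9 (21.5 and 23.8 against 23.0 and 24.5 CPM) did not pass. Leaving out 1 library gave 4 genes higher each time and 2 or 3 lower.

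Red cell genes were higher in MPP2 where they changed. Of 46 tested, 15 rose (32.6%, beside 4.80% of all genes) and 0 fell, and the median log2 fold change was 0.95. Mfsd2b, the sphingosine-1-phosphate exporter of red cells, had 9.40 and 8.51 CPM in MPP1 and 80.3 and 80.4 CPM in MPP2 (9.23-fold, adjusted p = 4.04e-07). Ermap and Rhd, blood group proteins of the red cell membrane, had 0.376 and 1.04 CPM against 11.1 and 11 CPM and 0.828 and 1.63 CPM against 10.1 and 11.8 CPM. Sptb, the beta spectrin of the membrane skeleton, had 0.150 and 0.518 CPM against 10.3 and 9.45 CPM. In these 4 genes every MPP2 library was above every MPP1 library. Car1, carbonic anhydrase of erythroid cells, had 6.55 and 9.10 CPM against 57.0 and 58.0 CPM, and Tfrc, the transferrin receptor, 11.7 and 12.5 CPM against 35.5 and 31.2 CPM. All of these stood below the young MEPs, whose means were 389 CPM for Mfsd2b, 690 for Ermap, 603 for Rhd, 141 for Sptb, 3320 for Car1 and 1130 for Tfrc. Slc4a1, the anion exchanger of late erythroid cells, had 6.70 and 6.73 CPM in MPP1, 54.7 and 51.3 CPM in MPP2 and a mean of 49.6 CPM in MEPs. Epor, the erythropoietin receptor, had 6.24 and 7.32 CPM against 10.0 and 13 CPM and did not pass (adjusted p = 0.0461). The hemoglobin genes did not pass, and the alpha genes Hba-a1 (379 and 63.0 CPM in the MPP1 libraries) and Hba-a2 (1.13 and 363 CPM) are near-identical copies between which reads can be split, so their single values are uncertain. The summed level of the list was 4090 to 4230 CPM in MPP1 and 5110 to 5350 CPM in MPP2, beside 22400 to 22500 CPM in MEPs. Between 9 and 12 genes of the list were called when 1 library was left out. The macrophage markers, which include genes of the marrow macrophages around erythroblasts, summed to 139 to 148 CPM and 351 to 353 CPM in the same libraries, and their part in these values was not tested.

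Of 13 tested genes of heme synthesis and its mitochondrial transport, 2 rose (15.4%, beside 4.80% of all genes) and 0 fell. Alas1, the housekeeping form of the first enzyme, had 51.6 and 54.4 CPM in MPP1 and 78.8 and 79.0 CPM in MPP2 (1.53-fold, adjusted p = 1.85e-06). Alas2, the erythroid form, had 14.6 and 14.9 CPM against 30.4 and 35.0 CPM and did not pass (adjusted p = 0.0981).

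Of 36 tested genes of granulocytes and monocytes, 24 were higher in MPP2 (66.7%, beside 4.80% of all genes), 0 were lower, 33 values were positive, and the median log2 fold change was 2.26. With DESeq2, with its size factors, without the filter and with the replicate number as a term, 1 gene of the list was called lower. The same held in the fits of the 4 or of the 16 young libraries. The lowest value was that of Cebpb (log2 fold change -1.46, adjusted p = 0.142), whose MPP2 libraries stood apart at 15.1 and 125 CPM against 205 and 193 CPM in MPP1. Mpo, the myeloperoxidase of primary granules, had 95.8 and 88.6 CPM in MPP1 and 1620 and 1660 CPM in MPP2 (18.3-fold, log2 fold change 4.19, SE 0.43, adjusted p = 7.91e-07). Elane and Ctsg, the serine proteases of the same granules, had 19.0 and 18.3 CPM against 238 and 261 CPM and 4.21 and 3.26 CPM against 51.7 and 55.4 CPM. Ly6c2, a surface protein of monocytes and neutrophils, had 5.34 and 3.40 CPM against 56.0 and 56.6 CPM, and Clec12a, an inhibitory lectin receptor, 5.42 and 4.44 CPM against 24.9 and 25.3 CPM. Plac8 and Nkg7 had 92.5 and 104 CPM against 247 and 262 CPM and 41.4 and 44.4 CPM against 148 and 163 CPM. Csf1r, the receptor that drives macrophage development, had 3.31 and 4.29 CPM against 20.9 and 21.7 CPM (5.75-fold, adjusted p = 2.46e-07). Among the myeloid factors, Cebpa (8.20 and 9.03 against 20.5 and 22.3 CPM) and Irf8 (12 and 11.8 against 29.3 and 28.8 CPM) rose, while Spi1 stood at 145 and 146 against 138 and 139 CPM. Prtn3 and Csf3r did not pass, with adjusted p of 0.0278 and 0.0186.

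Ltf, Ngp, Camp and S100a8, genes of late neutrophils in the same list, were higher in MPP2 than in MPP1 and, except S100a8, lower in GMPs than in MPP2. Ltf, lactoferrin, had 16.5 and 11.3 CPM in MPP1 and 130 and 131 CPM in MPP2, but a mean of 7.26 CPM in GMPs. Ngp had 43.6 and 29.0 CPM against 263 and 276 CPM, with 12.5 CPM in GMPs, and Camp, the cathelicidin, 8.95 and 7.62 CPM against 63.2 and 74.9 CPM, with 5.13 CPM in GMPs. S100a8 had 15.7 and 13.5 CPM against 119 and 126 CPM, with 167 CPM in GMPs. Mpo and Elane, by contrast, had means of 56000 and 11800 CPM in GMPs. Levels of all 6 were also high in MPP3, another CD48+ fraction. Its means were 3150 CPM for Mpo, 333 for Elane, 208 for Ltf, 464 for Ngp, 91.8 for Camp and 177 for S100a8. These markers of mature neutrophils moved with the fraction, with log2 fold changes of 2.93 to 3.28, and the part of mature cells or of their RNA in the granulocyte results was not tested.

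Basophil, mast cell and eosinophil genes rose in 10 of 26 tested (38.5%, beside 4.80% of all genes), with 0 lower. Prss34, a protease of basophils, had no count in MPP1 and 194 and 188 counts in MPP2, at least 66.5-fold higher when 3 counts per library are taken as the limit that a count of 0 allows. Mcpt8, another basophil protease, had no count in MPP1 and 80 and 99 in MPP2, at least 31.1-fold higher. Cpa3, the carboxypeptidase of mast cells and basophils, had 4.14 and 4.00 CPM against 46.1 and 48.6 CPM (12-fold, log2 fold change 3.58, SE 0.14, adjusted p = 1.1e-13). Hdc, which makes histamine, had 1.05 and 0.222 CPM against 21.2 and 18.3 CPM, and Rab44 had 1.5 and 1.85 CPM against 16.3 and 15.9 CPM. Ccl9 had 9.33 and 7.84 CPM against 28.8 and 30.0 CPM. Il1rl1, the receptor of interleukin 33, had 2 and 0 counts in MPP1 and 59 and 60 in MPP2, a ratio of 62.1 with a 95% interval of 16.8 to 519 for counting error only. In MPP1, 10 genes of the list had no count, and with those at their lower bound the median log2 fold change was 1.30. Mrgprx2 and Tpsab1, a tryptase of mature mast cells, had no count in either fraction. The sum of the list was 142 to 148 CPM in MPP1 and 347 to 352 CPM in MPP2, beside 1010 to 1020 CPM in MPP3 and 2880 to 2950 CPM in GMPs.

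Of 31 lymphoid genes tested, 7 rose (22.6%, beside 4.80% of all genes) and 0 fell, and 4 to 6 were called higher when 1 library was left out. Dntt, the terminal transferase of lymphoid precursors, had 0.150 and 0.296 CPM in MPP1 and 4.98 and 6.43 CPM in MPP2 (25.2-fold, adjusted p = 6.14e-09) and a mean of 58.7 CPM in MPP3. Ly6d had 0 counts in MPP1 and 16 and 18 in MPP2, at least 5.91-fold higher, and Il2rb, a receptor chain of NK and T cells, 0 against 41 and 61 counts, at least 17.7-fold higher. Pax5 had no count in any of the 4 libraries, and Flt3, Rag1 and Rag2 did not pass. The median log2 fold change was 0.86 with genes absent from MPP1 at their lower bound. The 15 B, T and NK cell markers summed to 92.0 to 98.6 CPM and 201 to 219 CPM in the same libraries. Most of that rise lay in Nkg7, given above.

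Of 43 S phase genes 33 were higher in MPP2 (76.7%), and of 54 genes of the G2 and M phases 44 (81.5%), beside 4.80% of all genes, and 0 of either list were lower. The medians were 0.62 and 0.78 on the log2 scale, the largest single change 1.21, and 43 of 43 and 53 of 54 values were positive. Rrm2, a subunit of the enzyme that makes deoxynucleotides, had 112 and 102 CPM in MPP1 and 209 and 213 CPM in MPP2 (2.03-fold, SE 0.08 on the log2 scale, adjusted p = 1.04e-08). Uhrf1, which copies DNA methylation at replication, had 317 and 299 CPM against 489 and 487 CPM, Rrm1 423 and 407 CPM against 651 and 645 CPM and Tyms, thymidylate synthase, 88.4 and 95.3 CPM against 154 and 148 CPM. Of the mitotic genes, Aurkb, a kinase of the chromosomal passenger complex, had 95.4 and 83.2 CPM against 165 and 171 CPM (1.94-fold, adjusted p = 1.03e-06), its partner Birc5 70.7 and 76.0 CPM against 128 and 124 CPM, Gtse1 27.6 CPM in both against 48.6 and 46.5 CPM and Tacc3, a spindle protein, 94.6 and 91.5 CPM against 171 and 161 CPM. No library of one fraction overlapped the other in these genes. The S phase list summed to 3160 to 3240 CPM in HSCs, 6700 CPM in both MPP1 libraries and 9560 to 9570 CPM in MPP2, and the G2 and M list to 2870 to 2910, 6660 to 6820 and 10100 CPM. Leaving out 1 library gave 23 to 28 S phase and 35 to 39 G2 and M phase genes.

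Of 37 tested genes of G1 control, 11 rose (29.7%, beside 4.80% of all genes) and 3 fell (8.11%, beside 2.02%). Cdk6, the kinase that takes stem cells out of quiescence, had 56.1 and 48.2 CPM in MPP1 and 142 and 145 CPM in MPP2 (2.84-fold, log2 fold change 1.5, SE 0.11, adjusted p = 1.15e-08). Ccna2, cyclin A2, had 197 and 198 CPM against 356 and 344 CPM. E2f8, a repressor of the E2F family, had 31.0 and 31.1 CPM against 70.8 and 69.0 CPM, and Tfdp1, the partner of the E2F factors, 337 and 343 CPM against 469 and 468 CPM. Ccnd2, Cdkn1c and Mycn fell. The quiescence inhibitor Cdkn1c (p57) had 57.3 and 55.3 CPM against 26.4 and 24.1 CPM (2.17-fold, adjusted p = 0.00545). Mycn had 212 CPM in both against 110 and 113 CPM, and the D-type cyclin Ccnd2 421 and 406 CPM against 282 and 283 CPM. None of these 3 kept its call when 1 of the 4 libraries was left out, with adjusted p between 0.0331 and 0.0757 for Cdkn1c, 0.0177 and 0.0328 for Mycn and 0.0433 and 0.0709 for Ccnd2. Cdk4, Ccnd3 and Myc did not pass, at 553 and 597 against 623 and 653 CPM, 307 and 302 against 336 and 343 CPM and 508 and 500 against 447 and 457 CPM.

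The stretch ahead of Hmgb2 is shown as an example of a promoter with the words that many cell cycle genes share, the CHR word TTTGAA and the CCAAT box, and was chosen after both were found in it. It is chr8:57511593-57511842 on the plus strand of GRCm38.p6, with both words in capitals on either strand.
Hmgb2: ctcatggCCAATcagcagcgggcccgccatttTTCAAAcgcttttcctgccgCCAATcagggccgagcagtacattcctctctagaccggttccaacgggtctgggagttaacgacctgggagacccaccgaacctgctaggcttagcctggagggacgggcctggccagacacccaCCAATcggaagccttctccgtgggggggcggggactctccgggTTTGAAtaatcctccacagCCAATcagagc
It held the CHR word 2 times and the CCAAT box 4 times. Hmgb2, a chromatin protein of dividing cells, had 490 and 529 CPM in MPP1 and 841 and 865 CPM in MPP2 (log2 fold change 0.79, SE 0.09, adjusted p = 3.3e-06). Of the 44 called G2 and M phase genes 36 had an entry in the promoter table, of which 15 (41.7%) held the CHR word and 27 (75.0%) the CCAAT box, beside 16.3% and 34.5% of all 27025 stretches and 3 (21.4%) and 4 (28.6%) of the 14 stem cell genes that fell and had an entry. These shares are descriptions of the letters. The share for the S phase genes is void, since 23 of 33 (69.7%) had an entry.

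**Figure D2:**
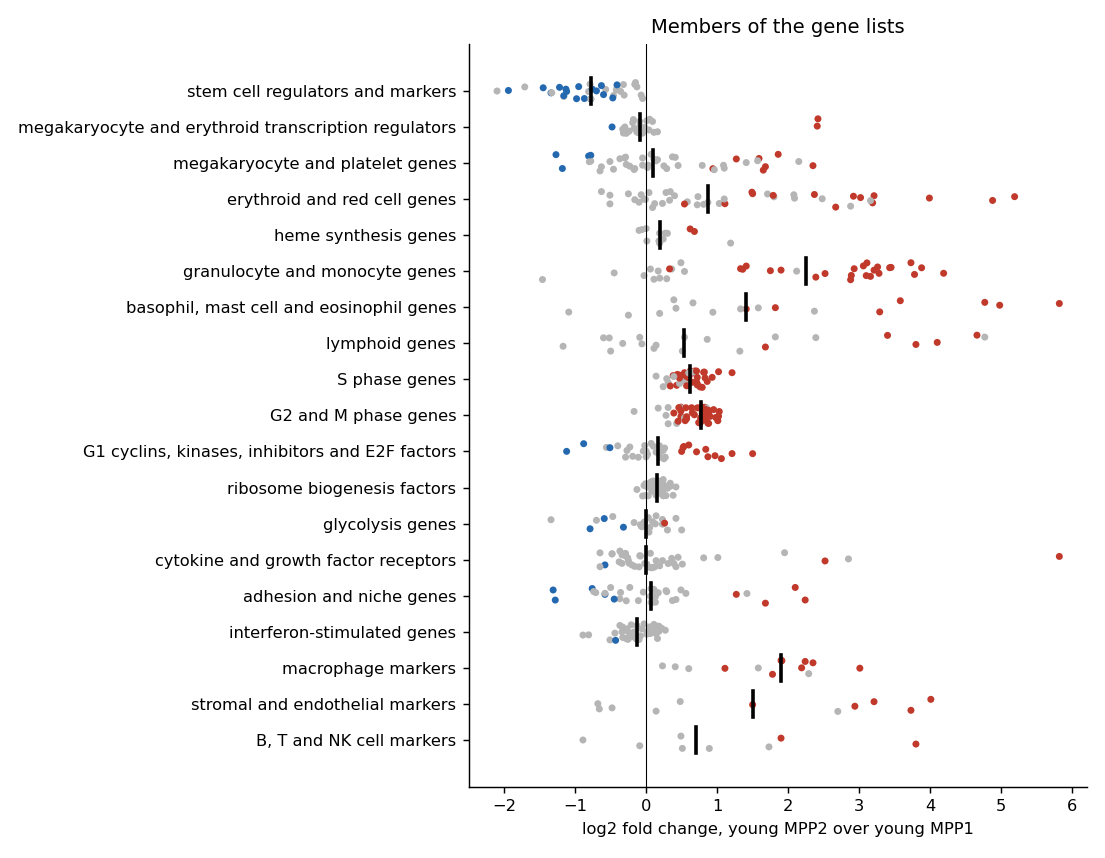
Each point is a tested member of a gene list at its log2 fold change between young MPP2 and MPP1, red where called higher and blue where called lower, and the black bar is the median of the points drawn. Members without a count in both libraries of a fraction are not drawn, which leaves 17 of 26 basophil, mast cell and eosinophil genes and 21 of 31 lymphoid genes. The cell cycle lists lie in a narrow band right of zero, the stem cell list left of it.

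The remaining lists are to be read beside the 4.80% of all genes that were higher and the 2.02% that were lower. Of 45 ribosome biogenesis factors 0 passed in either direction, with a median of 0.15, a highest log2 fold change of 0.42 and 40 of 45 values positive. DESeq2 called 3 of them higher, the fit of the 4 libraries alone 9 and that of the 16 young libraries 2. Of 24 glycolysis genes 1 rose (Ldha, 1030 and 1050 against 1200 and 1220 CPM) and 3 fell (4.17% and 12.5%). Ldhb, the lactate dehydrogenase subunit of oxidative tissue, fell from 170 and 160 CPM to 94.0 and 91.4 CPM (1.73-fold, adjusted p = 0.000175), and Slc2a3, a glucose transporter, from 261 and 269 CPM to 173 and 168 CPM. Aldoa, aldolase A, also fell, and the calls of Ldha and Aldoa were lost without any 1 of the 4 libraries. Of 43 cytokine and growth factor receptors, Csf1r and Il1rl1 were higher, and Eng, a receptor of the TGF-beta family that marks HSCs, was lower at 311 and 306 CPM against 207 and 194 CPM (adjusted p = 3.5e-05). Of 45 interferon-stimulated genes 0 rose and 1 fell, Ifitm3 (350 and 377 against 256 and 270 CPM, adjusted p = 0.0053, a call lost without any 1 of the 4 libraries), and the median was -0.13. Of 31 immediate early and heat shock genes, which can respond to the handling of cells, 1 rose and 1 fell, Hsp90aa1 and Klf2. Neither kept its call without any 1 of the 4 libraries. Other settings called more of the list: DESeq2 3 higher and 5 lower, the fit of the 16 young libraries 4 and 7. The fit of the 4 libraries alone called 7 higher and 14 lower. Klf2 had 281 and 294 CPM against 140 and 150 CPM with an adjusted p of 0.00635, and of 0.03 to 0.0753 without any 1 of the 4 libraries.

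Among 37 adhesion and niche genes 4 rose (10.8%, beside 4.80% of all genes) and 5 fell (13.5%, beside 2.02%), and 1 to 4 were called lower when 1 library was left out. Itgal, the integrin subunit of LFA-1, had 15.7 and 16.7 CPM in MPP1 and 71.1 and 64.1 CPM in MPP2 (4.29-fold, adjusted p = 1.58e-07), and Vcam1 had 11.7 and 11.6 CPM against 50.3 and 56.7 CPM (4.73-fold, adjusted p = 1.29e-07). Vcam1 is also among the macrophage markers given above. Itga2b, described above, also rose. The tetraspanin gene Cd82 fell from 95.9 and 103 CPM to 64.6 CPM in both libraries, and the junction genes Jam3 and Jam2 from 33.4 and 37.1 CPM to 14.3 and 13.9 CPM and from 9.40 and 11.8 CPM to 3.53 and 4.76 CPM. The calls of Jam2 and Jam3 were lost without MPP2 replicate 1 (adjusted p = 0.0437 and 0.0172) and without MPP1 replicate 2 (0.0316 and 0.0177), and that of Jam3 also without MPP2 replicate 2 (0.0204). Ptk2b, a focal adhesion kinase, fell from 193 and 209 CPM to 140 and 145 CPM, and its call was lost without MPP2 replicate 1 (0.029), MPP2 replicate 2 (0.013) and MPP1 replicate 2 (0.0378).

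Among the genes with the largest increases and at least 10 CPM, outside those given above, were Jchain, the joining chain of antibodies (0.301 and 0.592 CPM against 38.9 and 43.3 CPM, 92.5-fold), the lipid flippase gene Atp8b4 (0.301 and 0.666 CPM against 22.1 and 23.7 CPM, 47.7-fold), Mmp9, gelatinase B (0.903 and 0.740 CPM against 26.5 and 30.6 CPM, 35.4-fold) and Cst7, a protease inhibitor of immune cells (1.05 and 0.740 CPM against 16.3 and 17.6 CPM, 19.3-fold). Slc45a3 had 3 counts in each MPP1 library and 136 and 154 in MPP2, a ratio of 50.5 with a 95% counting interval of 22.9 to 139. Among the largest decreases, Evc2 had 14.1 and 12.8 CPM in MPP1 and 2.33 and 1.82 CPM in MPP2 (6.3-fold, adjusted p = 8.73e-06), Pygm, the muscle glycogen phosphorylase, 40.6 and 41.1 CPM against 11.9 and 12.1 CPM (3.31-fold) and Pde1b, a phosphodiesterase, 40.9 and 38.8 CPM against 11.2 and 12.9 CPM (3.21-fold). Trib3, a stress-induced pseudokinase, had 20.9 and 18.8 CPM against 5.62 and 6.43 CPM (3.19-fold). H2-K2 had 19.9 and 21.5 CPM against 1.04 and 0.756 CPM but has close relatives among the MHC genes, so its reads may be divided. Its adjusted p of 0.0084 rose to between 0.0286 and 0.101 when 1 library was left out. Levels of Evc2, Pygm, Pde1b and Trib3 were highest in young HSCs among these 3 fractions, with means of 29.5, 168, 98.8 and 68.9 CPM. In 26 of the genes called higher both MPP1 libraries had no count, and the lower bounds of their change ran from 3.31-fold (Gas7) to 66.5-fold (Prss34).

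The genes of the step were then read in young HSCs, GMPs and MEPs, whose counts do not enter the fold changes of the step. The fit takes its filter, scaling and estimate of spread from all 32 libraries, so the calls are not fully independent. Of the 680 genes higher in MPP2, 536 (78.8%) were also called higher in MEPs than in HSCs, beside 29.7% of all genes, and 604 (88.8%) in GMPs than in HSCs, beside 31.8%. Calls in the other direction were 64 (9.41%, beside 39.0% of all genes) and 23 (3.38%, beside 32.8%). Between the restricted progenitors, 293 (43.1%) were higher in MEPs than in GMPs, beside 22.6% of all genes, and 220 (32.4%) lower, beside 27.9%. These sets differed in size of change: the median log2 fold change of the step was 0.75 in the 293 genes on the MEP side and 1.42 in the 220 genes on the GMP side, and 65 (22.2%) and 132 (60%) of them changed at least 2-fold. Genes of the S phase and G2 and M phase lists made up 54 of the 293 and 6 of the 220. Among the 167 higher genes not called between MEPs and GMPs there were 17. Members of these lists that differ between MEPs and GMPs whatever their change in the step were not counted. The contrast therefore cannot be read as a property of the step. Of the 286 genes lower in MPP2, 267 (93.4%) were lower in MEPs and 266 (93.0%) lower in GMPs than in HSCs. With DESeq2 size factors the median log2 fold change of all genes in GMPs against HSCs moved from -0.04 to -0.16; in MEPs against HSCs it was -0.24 here.

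**Figure D3:**
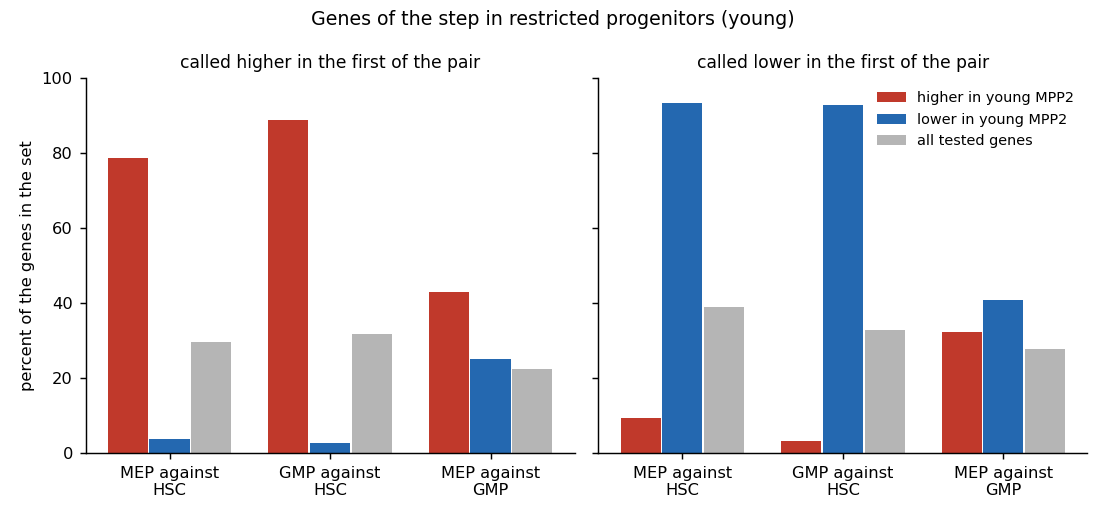
Bars give the percent of the 680 genes higher in young MPP2 (red), the 286 genes lower (blue) and all 14154 tested genes (grey) that were called higher (left panel) or lower (right panel) in MEPs against HSCs, GMPs against HSCs and MEPs against GMPs. Against HSCs the red bars reach 78.8 and 88.8% in the left panel and the blue bars 93.4 and 93.0% in the right panel.

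Beside MPP3, another CD48+ fraction, the libraries of MPP2 are shared by both comparisons, so values are given without a count of common genes. In MPP2 against MPP3, 188 genes were higher (1.33%) and 150 lower (1.06%). Gata1 was higher in MPP2 than in MPP3 (log2 fold change 2.35, adjusted p = 4.17e-08, MPP3 mean 9.54 CPM), Mfsd2b as well (2.89, MPP3 mean 10.7 CPM), and Itga2b (1.19, 118 CPM) and Gp5 (1.66, 21.0 CPM) too. Klf1, at a mean of 11 CPM in MPP3, did not pass (0.57, SE 0.22, adjusted p = 0.19), nor did Ermap (-0.09), Rhd (-0.21) and Sptb (0.06). The platelet genes Plek (-0.14) and Serpine2 (0.14) did not pass either. Gfi1b (0.80, adjusted p = 0.00105) and Sox6 (0.80), which did not pass against MPP1, were higher in MPP2 than in MPP3. Of the red cell genes 5 of 46 were higher in MPP2 than in MPP3 and 1 lower, with a median log2 fold change of 0.08. Of the megakaryocyte and platelet genes 6 of 45 were higher and 0 lower, with a median of 0.47. Of the G2 and M phase genes 39 of 54 were higher in MPP2 than in MPP3 and of the S phase genes 12 of 43. Of the granulocyte and monocyte genes 10 of 36, of the basophil, mast cell and eosinophil genes 8 of 26 and of the lymphoid genes 7 of 31 were lower in MPP2 than in MPP3, and 0 of these 3 lists were higher. Cpa3 (-2.01) and Dntt (-3.38) were among them. Mpo was not called (-0.96, adjusted p = 0.213). Of the macrophage markers 0 were called in either direction between MPP2 and MPP3.

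**Figure D4:**
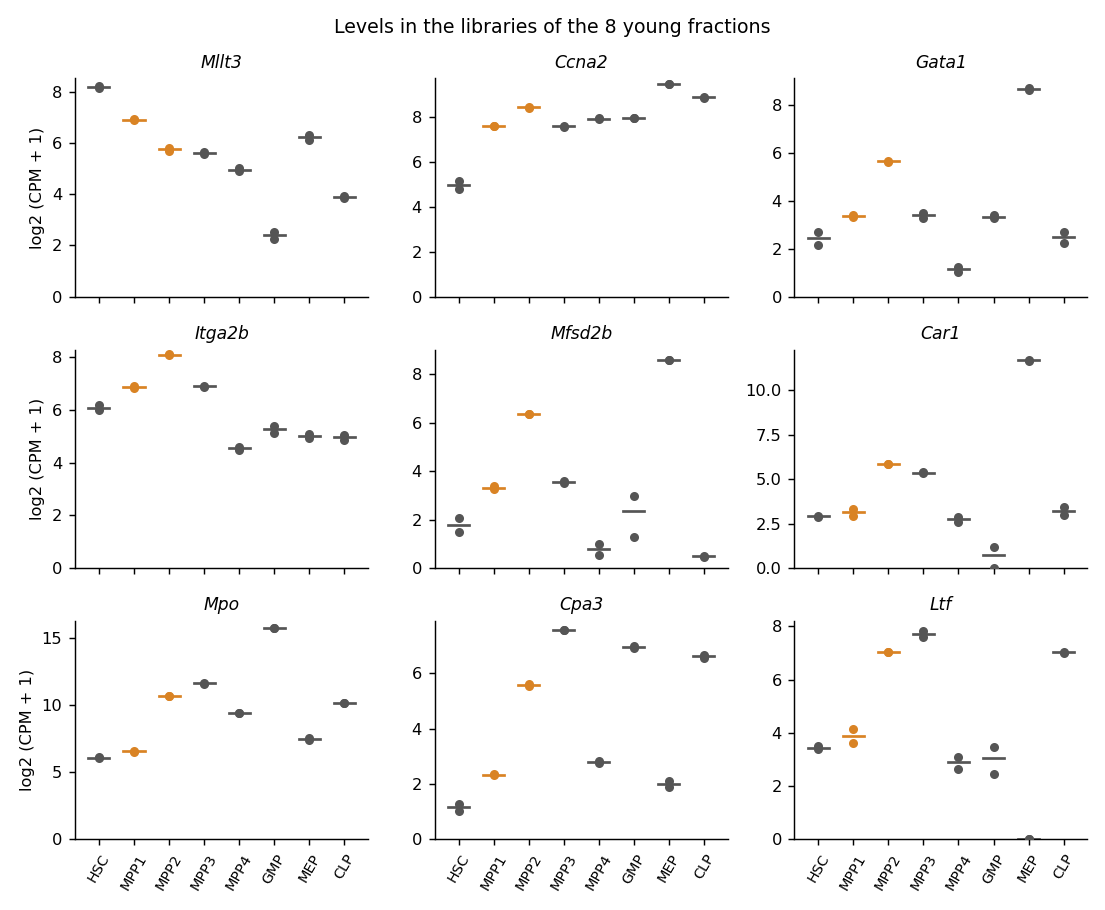
Points are the 2 libraries of each of the 8 young fractions and bars their mean, as log2 of CPM plus 1 on a vertical axis that starts at 0 and has its own range for each gene, with MPP1 and MPP2 in orange. Gata1 and Mfsd2b stand higher in MPP2 than in MPP1 and MPP3 and are highest in MEPs, Mpo is highest in GMPs, and Ltf is high in MPP2, MPP3 and CLPs but not in GMPs.

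The same step was tested in the aged MPP1 and MPP2 libraries, which are separate from the 4 young ones but share the estimate of spread. There 445 genes were higher in MPP2 (3.14%) and 340 lower (2.40%). Of the 680 genes higher in young MPP2, 344 were called higher in the aged step, 50.6% of the young and 77.3% of the aged calls, and 664 had a positive change. Of the 286 lower genes 188 were called lower, 65.7% of the young and 55.3% of the aged calls, and all 286 had a negative change. No gene was called in opposite directions. Gata1 rose by 1.34 on the log2 scale and Klf1 by 1.58 in aged cells (adjusted p = 2.62e-05 and 0.00252), Mpo by 2.41 and Mllt3 fell by 1.05. The G2 and M phase list had 43 of 54 genes higher in the aged step with a median of 0.71, whereas the S phase list had 11 of 43 with a median of 0.29, beside 0.78 and 0.62 in young cells. The red cell list had 2 genes higher and 2 lower with a median of 0.06, the megakaryocyte and platelet list 1 higher and 7 lower with a median of -0.39, and the stem cell list 15 lower. The difference of the step between ages, tested gene by gene, was called in 5 genes (0.0353%), and 473 genes had an unadjusted p under 0.05. Differences between the list counts of the ages were not tested. Itga2b, at 1.27 in young and 0.82 in aged cells, and Plek, at 1.59 and 0.16, were not among the 5.

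**Figure D5:**
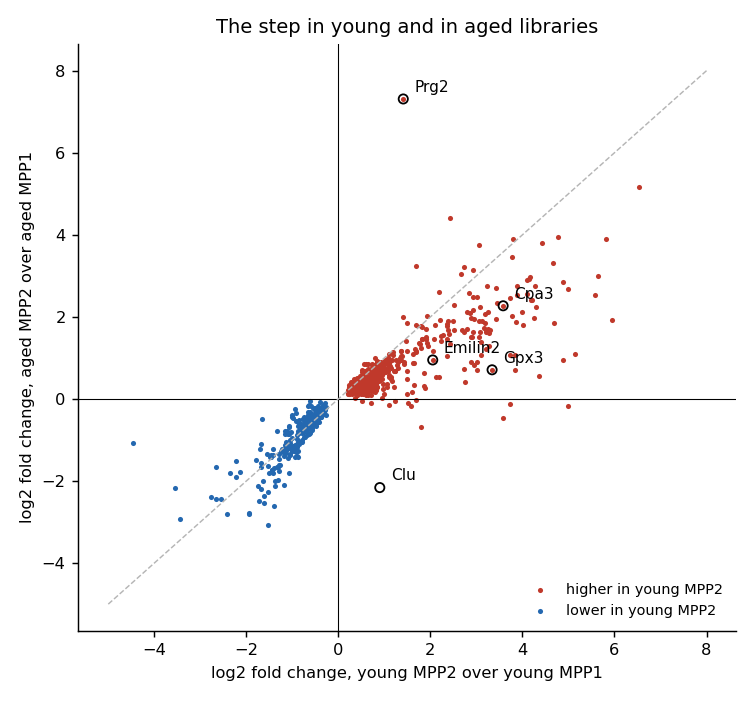
Each point is a gene called in the young step, at its log2 fold change in young (horizontal) and aged libraries (vertical), with 932 of 966 genes drawn because those without a count in both libraries of a group are left out, and the dashed line marks equal change. Circles mark the 5 genes whose step differed between ages, among them Clu, an empty circle since it was not called in young cells. Most red points lie above zero and most below the dashed line. The genes were chosen by their young calls, which favours large young changes, so their place beside that line does not measure an effect of age.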

How the data were processed

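Raw gene counts of 32 libraries, which the authors deposited as 1 matrix, were used. Per the study's methods, 60-base single reads of SMARTer low-input libraries were mapped with TopHat2 2.0.13 and Bowtie2 2.1.0 to mm10 and counted with StringTie. Strand use and molecular identifiers are not given in the sources used here, so overlapping and near-identical genes are uncertain. The authors' comparison columns (log2 fold changes and p-values) and normalized values were not used, and 0 columns of other samples were present. Symbols turned into dates (27, holding 0.188% of counts) were kept but not named.

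Counts were tested with the edgeR 4.0.16 quasi-likelihood test (R 4.3.3) over all 32 libraries in 16 groups, with TMM scaling (0.8073 to 1.113), filterByExpr (14154 of 24421 genes) and an adjusted p (Benjamini-Hochberg) under 0.01, in 7 comparisons. The groups had 2 libraries each, with 16 residual degrees of freedom and a common dispersion of 0.0127. The fit was tested on simulated counts. Library totals were 12460872 to 13516329 in young MPP1 and MPP2 and 11237384 to 17723245 over all, so that 3 counts, the limit for a count of 0, stood at 0.222 to 0.241 CPM. Intervals and limits cover counting error only. Distances used log2 CPM with a prior count of 2.

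The comparison and the gene lists were chosen with earlier results of these data known. Named were the sorting antigens, the regulators, the 10 largest called changes in each direction with at least 10 CPM, non-overlapping libraries and a regular symbol, up to 4 called genes per list and direction by p with those against the list's direction, 5 genes whose step differed between ages and 3 promoters. Some genes that meet this rule are counted in their lists but not reported here by name. All other genes given were chosen after their values were seen, as were the motif words and the Hmgb2 promoter. Positions are from GENCODE M21 (23350 symbols matched) and promoters from RefSeq (GRCm38.p6). Alternatives were DESeq2 1.42.0 and its size factors, no filter, other sets of libraries and thresholds, the replicate number as a term, and leaving out each library.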

Additional observations from a re-analysis of the deposited data

Results flagged for a closer look

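The step from MPP1 to MPP2 differed between ages in 5 genes by edgeR's test of the difference itself (aged minus young, on the log2 scale). For Gpx3, a secreted glutathione peroxidase, the difference was -2.63 (SE 0.40, adjusted p = 0.00617), with 1.05 and 1.41 CPM in young MPP1, 12.5 and 11.9 in young MPP2, 1.69 and 2.13 in aged MPP1 and 3.31 and 2.78 in aged MPP2. For Cpa3 it was -1.31 (SE 0.19, adjusted p = 0.00406), with 25.8 and 26.5 CPM in aged MPP2 against 5.85 and 5.43 in aged MPP1. For Emilin2, an extracellular glycoprotein, it was -1.11 (SE 0.16, adjusted p = 0.00285), with 15 and 12.4 against 55.1 and 55.6 CPM in young and 65.5 and 65.1 against 118 and 124 CPM in aged cells. For Clu, clusterin, it was -3.06 (SE 0.40, adjusted p = 0.00246), since aged MPP1 held 21.0 and 19.5 CPM against 4.65 and 4.06 in aged MPP2, while young MPP1 and MPP2 held 3.08 and 2.66 against 5.94 and 4.54 CPM. For Prg2, an eosinophil granule protein, it was 5.91 (SE 0.80, adjusted p = 0.00285), a value that depends on a near absence in aged MPP1 (0 and 0.550 CPM, against 45.3 and 46.5 in aged MPP2), and its call was lost without aged MPP1 replicate 2. Leaving out 1 of the 8 libraries gave 0 to 3 such genes, with 0 without young MPP2 replicate 1, young MPP1 replicate 2, aged MPP2 replicate 2 or aged MPP1 replicate 1.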

How the results depend on the processing

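The young step gave 966 calls here, 1682 with DESeq2, 2304 when the 4 libraries were fitted alone, 1759 at an adjusted p under 0.05, 323 where a change of 2-fold or more was also required and 473 to 494 when 1 library was left out. The share of higher genes was 70.4% here and 56.5% in the fit of the 4 libraries. The aged step gave 785 calls, 1616 with DESeq2 (42.8% higher, against 56.7% here), 1706 at an adjusted p under 0.05 and 290 to 328 without 1 library. The difference between ages gave 5 calls, 44 with DESeq2, 16 at an adjusted p under 0.05 and 0 to 3 without 1 library. MPP2 against MPP3 gave 338 calls, 693 with DESeq2 and 116 to 151 without 1 library. Calls between HSCs, GMPs and MEPs stayed within 1.5 times. By replicate number, the deviations of the 2 fractions showed little correlation (-0.008 in the young fractions and -0.044 in the aged). These deviations include counting error, so whether libraries shared a pool or sort cannot be told from them. With the replicate block the young step gave 982 calls, and of 95 called named genes H2-K2 was lost. DESeq2 lost Tinagl1 and Cdkn1c, and leaving out 1 library lost 15 to 18 named genes. No named gene changed direction under any of these settings. Low genes are limited by depth: 38 of the higher genes had at most 3 counts in each MPP1 library.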
